A study of Homo sapiens with 2 samples.

Results

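The polyamine genes described here are the 10 genes ODC1, AMD1, SRM, SMS, SAT1, SMOX, PAOX, OAZ1, OAZ2 and AZIN1, which make, break down and control the small cations putrescine, spermidine and spermine. They were chosen by gene symbol and found by Entrez number in a table of 16021 genes, and all 10 had a row. Messenger RNA was sequenced from HGC-27, an established human cell line that the labels give as gastric adenocarcinoma. The cells had received lentivirus with DDX5 shRNA, which targets the RNA helicase DDX5, or, as control, lentivirus with non-targeting shRNA. All cells passed through puromycin selection, begun 48 h after transduction, and were harvested 1 week later. There was 1 library per condition, so every comparison sets 1 library against 1 other, with no replicate check, no test and no p-value. The labels do not say how many DDX5 shRNA sequences were used or whether the selected cells were clonal.

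Polyamines carry positive charges at cell pH, bind RNA and DNA, and are needed for cell growth. Ornithine decarboxylase, the product of ODC1, makes putrescine from ornithine, and the synthases SRM and SMS extend it to spermidine and spermine with aminopropyl groups that AMD1 prepares from S-adenosylmethionine. In the opposite direction SAT1 acetylates spermidine and spermine so that they can be exported or oxidised by PAOX, while SMOX oxidises spermine directly and releases hydrogen peroxide. Antizymes bind ornithine decarboxylase and send it to the proteasome, and the antizyme inhibitor AZIN1, a relative of ornithine decarboxylase, draws them away. Much of this control acts on translation and protein stability, which RNA sequencing does not measure.

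A few promoter windows and a pair of coding stretches carry what is read against the values further on. Windows from RefSeq (GRCh38.p14), 250 bases before to 50 bases after an annotated start, were matched for 7 of the 10 genes. SAT1 is shown as a catabolic gene that was more abundant under DDX5 shRNA (chrX:23782923-23783222, + strand). AMD1 is shown as the gene with the lowest ratio (chr6:110874535-110874834, + strand), with capitals on a TATAA match and on a short upstream open reading frame. ODC1 (chr2:10447963-10448262, - strand) and SRM (chr1:11059969-11060268, - strand) are shown with capitals on the letters CACGTG, the E-box that MYC and MAX bind.
SAT1: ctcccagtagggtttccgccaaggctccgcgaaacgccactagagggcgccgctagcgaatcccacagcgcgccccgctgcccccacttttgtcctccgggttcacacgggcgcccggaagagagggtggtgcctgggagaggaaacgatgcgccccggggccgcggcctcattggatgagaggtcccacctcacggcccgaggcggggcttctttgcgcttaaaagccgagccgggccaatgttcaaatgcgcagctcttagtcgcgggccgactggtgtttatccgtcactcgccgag
AMD1: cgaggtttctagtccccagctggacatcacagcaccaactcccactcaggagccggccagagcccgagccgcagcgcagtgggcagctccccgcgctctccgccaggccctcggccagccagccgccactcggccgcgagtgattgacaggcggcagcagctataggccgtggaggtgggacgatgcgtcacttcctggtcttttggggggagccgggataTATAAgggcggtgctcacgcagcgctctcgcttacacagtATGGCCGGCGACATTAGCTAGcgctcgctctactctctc
ODC1: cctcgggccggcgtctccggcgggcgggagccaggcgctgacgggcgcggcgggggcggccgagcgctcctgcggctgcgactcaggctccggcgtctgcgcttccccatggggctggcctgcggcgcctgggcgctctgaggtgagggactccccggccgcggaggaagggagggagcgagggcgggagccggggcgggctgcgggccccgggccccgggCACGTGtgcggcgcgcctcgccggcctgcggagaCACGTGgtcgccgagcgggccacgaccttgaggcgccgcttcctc
SRM: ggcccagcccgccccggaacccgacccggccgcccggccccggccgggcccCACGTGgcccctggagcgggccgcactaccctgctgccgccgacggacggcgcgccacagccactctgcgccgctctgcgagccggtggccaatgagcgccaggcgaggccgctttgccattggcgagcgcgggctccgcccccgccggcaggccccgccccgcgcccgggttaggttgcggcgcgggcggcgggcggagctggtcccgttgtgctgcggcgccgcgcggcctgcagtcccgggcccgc

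The antizyme genes OAZ1, on chromosome 19, and OAZ2, on chromosome 15, share a stop codon inside their reading frame that ribosomes pass by shifting forward by 1 base, more often when polyamines are plentiful. It is in capitals in the coding stretches below, taken from GENCODE 29 transcript models.
OAZ1: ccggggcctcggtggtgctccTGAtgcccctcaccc
OAZ2: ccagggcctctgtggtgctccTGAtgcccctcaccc
These stretches are identical at 34 of 36 bases. The T of that stop is left out of 2 protein-coding models of OAZ1 and 3 of OAZ2, which is how the annotation writes the shifted frame, and 1 coding model of OAZ1 keeps it. Gene-level FPKM says nothing of how often the shift took place.

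The table gives FPKM, fragments scaled to transcript length and to the number sequenced, so levels of different genes can be set side by side. Log2 ratios are DDX5 shRNA over non-targeting shRNA on FPKM + 1, and 2-fold higher or lower means a log2 ratio of at least 1 or at most -1 on that scale. Single-gene folds are ratios of the deposited FPKM. Total FPKM was 594757 in the DDX5 shRNA library and 549129 in the non-targeting library, with 33.4% and 27.9% of it from cytosolic ribosomal protein genes. Setting both libraries to the same total moved the median log2 ratio over all genes by -0.10. Steps between low FPKM values corresponded to about 1.43e+07 fragments in the DDX5 shRNA library and 1.45e+07 in the non-targeting library. DDX5 itself had 50.78 FPKM in the DDX5 shRNA library, or 29.8% of the 170.5 FPKM in the non-targeting library. Of 6 gastric and epithelial markers with a row, 4 lay below a mean of 1 FPKM, among them EPCAM at 0.39 and 0.04 FPKM and CDH1 at 0.07 and 0.36 FPKM in the DDX5 shRNA and non-targeting libraries. KRT8, at 1.31 and 5.24 FPKM, was 4-fold lower in the DDX5 shRNA library, and MUC1 stood at 7.41 and 6.12 FPKM. Of 6 mesenchymal markers 5 passed that mean, with VIM at 1270.59 and 1583.62 FPKM and TWIST1 at 199 and 98.96 FPKM. TWIST1 was higher in the DDX5 shRNA library and lay at the 2-fold limit on FPKM + 1. CDH2 was listed at 0 in the DDX5 shRNA library and at 0.07 FPKM in the other.

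Of the 3 catabolic enzyme genes, SAT1 and SMOX passed 2-fold towards the DDX5 shRNA library, while PAOX did not. No member was 2-fold lower. Among the 11413 genes whose mean reached 1 FPKM, 4.19% were 2-fold higher and 2.27% 2-fold lower. Of the members, 9 reached that mean, 2 of them (22.2%) were 2-fold higher and the other 7 lay within 2-fold. The median log2 ratio of these 9 members was 0.14, beside 0.024 for all genes. A ratio above 0 was found for 7 of the 9, beside 52.0% of all genes. Among these 7, SMS (0.02) and OAZ2 (0.04) fell to -0.09 and -0.07 at the same total, where the median of all genes was -0.08. PAOX lay below the filter. The members, too, were chosen with earlier results of these data known, so these shares are a description only.

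**Figure D1:**
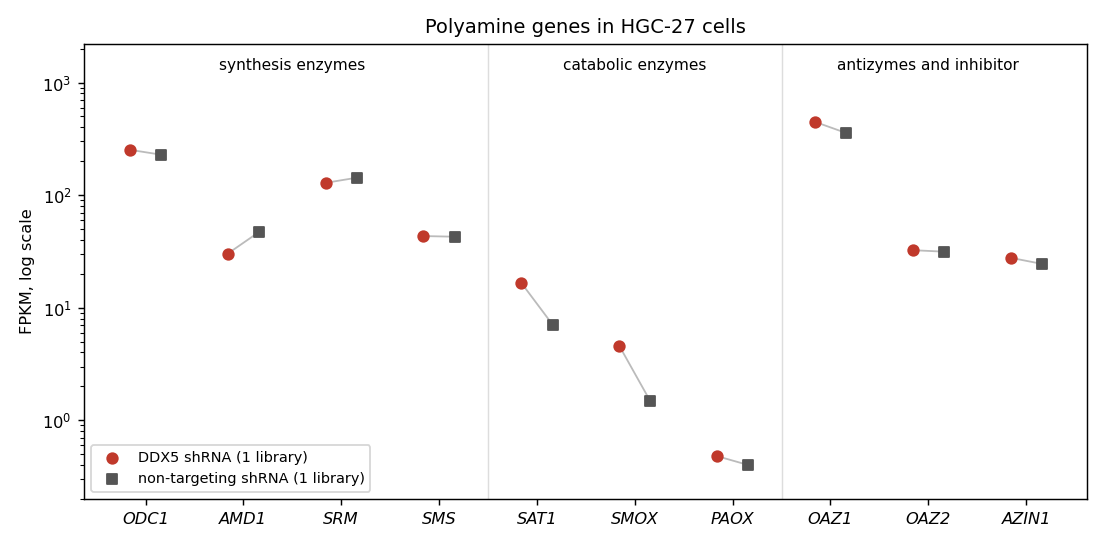
FPKM on a log scale of the 10 polyamine genes in the DDX5 shRNA library (circles) and the non-targeting library (squares), with 1 library each and no error bars. SAT1 and SMOX lie higher in the DDX5 shRNA library, AMD1 lies lower, and the antizyme gene OAZ1 is the highest gene in both.

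Among the synthesis enzymes, ODC1, the first step and the classical growth-regulated enzyme of the pathway, had 252.6 FPKM in the DDX5 shRNA library, against 228.54 FPKM in the non-targeting library. Its log2 ratio was 0.14 (1.11-fold higher), and 60.3% of all genes had a lower ratio. It was the second most abundant member in both libraries, above 98.3% of the table's genes in the DDX5 shRNA library and above 98.1% in the non-targeting library. ODC1 therefore sat close to the centre of the distribution of ratios and near the top of that of levels.

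AMD1, S-adenosylmethionine decarboxylase, whose product donates the aminopropyl groups, had 30.17 FPKM in the DDX5 shRNA library, against 47.01 FPKM in the non-targeting library. The log2 ratio of -0.62 was the lowest of the 10 members, a 1.56-fold lower level, and 8.93% of all genes had a ratio lower still. AMD1 was the sixth member by level in the DDX5 shRNA library and the fourth in the non-targeting library. No other member differed by more than 1 place between the libraries. In the AMD1 window printed above, the upstream open reading frame runs from base 12 to base 32, with the annotated start as base 1. It holds 6 codons before its stop. Polyamines are known to slow translation of AMD1 mRNA through that reading frame, a step that FPKM does not show.

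SRM, spermidine synthase, had 128.43 FPKM in the DDX5 shRNA library, against 142.8 FPKM in the non-targeting library, a log2 ratio of -0.15. SMS, spermine synthase, had 43.26 FPKM in the DDX5 shRNA library, against 42.69 FPKM in the non-targeting library. Its log2 ratio of 0.02 fell below 0 under 3 scalings, to -0.09 at the same total. The levels of both synthase genes were thus close in the 2 libraries, 1.11-fold lower for SRM and 1.01-fold higher for SMS. Summed over ODC1, AMD1, SRM and SMS, synthesis enzymes came to 454 FPKM in the DDX5 shRNA library and 461 FPKM in the non-targeting library. Within that nearly equal sum the ODC1 level was 8.37 times the AMD1 level in the DDX5 shRNA library and 4.86 times in the non-targeting library.

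SAT1, the acetyltransferase that polyamines themselves induce and that sets the pace of their breakdown, had 16.62 FPKM in the DDX5 shRNA library, against 7.07 FPKM in the non-targeting library. This 2.35-fold higher level was a log2 ratio of 1.13, and 96.9% of all genes had a lower one. With full transcript length the values came to about 253 and 109 fragments in the DDX5 shRNA and non-targeting libraries. SAT1 thus lay above 72.1% of the table's genes by level in the DDX5 shRNA library and above 54.2% in the non-targeting library. SAT1 pre-mRNA is known to be spliced into a form that is degraded when polyamines are low, and GENCODE 29 lists 9 SAT1 transcripts of which 4 are protein-coding. The deposited values give 1 number per gene and do not separate these forms.

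SMOX, spermine oxidase, had 4.61 FPKM in the DDX5 shRNA library, against 1.47 FPKM in the non-targeting library. The level was 3.14-fold higher, the largest fold of the 10 members, with a log2 ratio of 1.18 that exceeded 97.3% of all ratios. About 153 fragments lay behind the value in the DDX5 shRNA library and 49 in the non-targeting library. These numbers use the longest coding transcript, of 2322 bases. The shortest coding model has 982 bases and would give fewer. Genes with a mean between 1 and 5 FPKM, where SMOX lies, were 2-fold higher in 5.26% of cases, and genes above that range, where SAT1 lies, in 3.83%. With a pseudocount of 5 the log2 ratios were 0.84 for SAT1 and 0.57 for SMOX, so neither was 2-fold higher on that scale, where 1.70% of all genes were. At the same total they were 1.02 and 1.10, and 3.32% of all genes were 2-fold higher.

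PAOX, the peroxisomal oxidase of acetylated polyamines, had 0.48 FPKM in the DDX5 shRNA library and 0.4 FPKM in the non-targeting library, worth about 13 and 11 fragments. At that depth no difference was detectable. The transcript of this enzyme, which follows SAT1, was therefore the scarcest of the members in both libraries. Catabolic transcripts summed to 21.7 FPKM in the DDX5 shRNA library and to 8.94 FPKM in the non-targeting library, a ratio of 2.43. They made up 4.56% of the FPKM of all 7 enzymes in the DDX5 shRNA library and 1.90% in the non-targeting library. ODC1 transcripts were 15.2 times as abundant as SAT1 transcripts in the DDX5 shRNA library and 32.3 times in the non-targeting library.

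**Figure D2:**
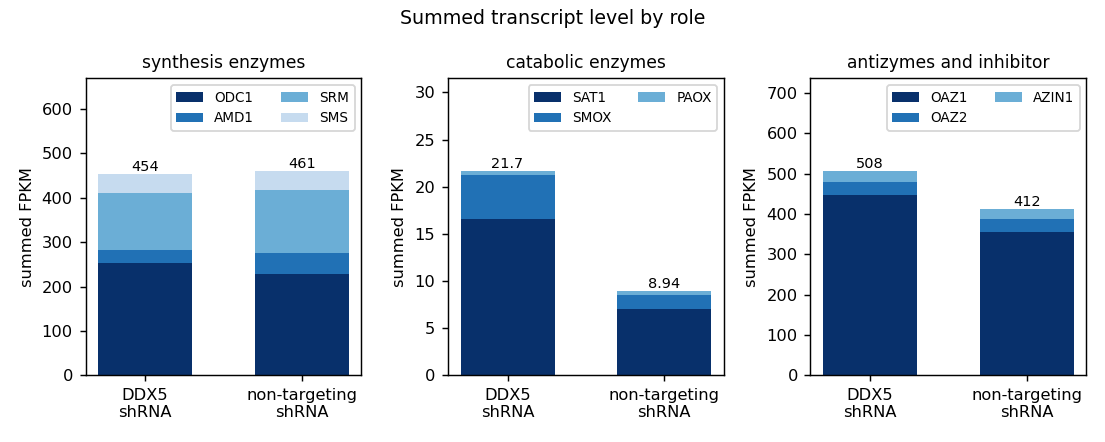
Summed FPKM of the synthesis enzymes, the catabolic enzymes and the antizymes with their inhibitor, stacked by gene, in the DDX5 shRNA library (left bar) and the non-targeting library (right bar), with a separate linear axis from 0 in each panel. The catabolic sum was 21.7 against 8.94 FPKM, while the synthesis sum was 454 against 461 FPKM and the antizyme group 508 against 412 FPKM (DDX5 shRNA against non-targeting shRNA in each).

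Among the regulators, OAZ1, the main antizyme, had 447.75 FPKM in the DDX5 shRNA library, against 356.18 FPKM in the non-targeting library. It was the most abundant member in both libraries and had a log2 ratio of 0.33 (1.26-fold higher), with 73.5% of all genes lower. OAZ2, the second widely expressed antizyme, had 32.42 FPKM in the DDX5 shRNA library, against 31.43 FPKM in the non-targeting library. Its log2 ratio of 0.04 changed sign at the same total, to -0.07. OAZ1 transcripts were 13.8 times as abundant as OAZ2 transcripts in the DDX5 shRNA library and 11.3 times in the non-targeting library.

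AZIN1, the antizyme inhibitor, had 27.75 FPKM in the DDX5 shRNA library, against 24.49 FPKM in the non-targeting library, a log2 ratio of 0.17. The summed antizyme level was 17.3 times that of AZIN1 in the DDX5 shRNA library and 15.8 times in the non-targeting library. Relative to ODC1, antizyme transcripts stood at 1.90 in the DDX5 shRNA library and 1.70 in the non-targeting library. All 3 regulators had a ratio above 0 as deposited, beside 52.0% of all genes. At the same total OAZ2 fell to -0.07 and AZIN1 to 0.06. The sum of the 3 was 508 FPKM in the DDX5 shRNA library and 412 FPKM in the non-targeting library. Of that sum OAZ1 alone made up 447.75 and 356.18 FPKM.

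By level, the order in the DDX5 shRNA library was OAZ1, ODC1, SRM, SMS, OAZ2, AMD1, AZIN1, SAT1, SMOX and PAOX. The non-targeting library had the same order except that AMD1 stood above SMS and OAZ2. The spread between cultures was not measured, so neighbours in that order with close values, such as OAZ2, AMD1 and AZIN1 in the DDX5 shRNA library, cannot be ranked beyond these libraries.

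**Figure D3:**
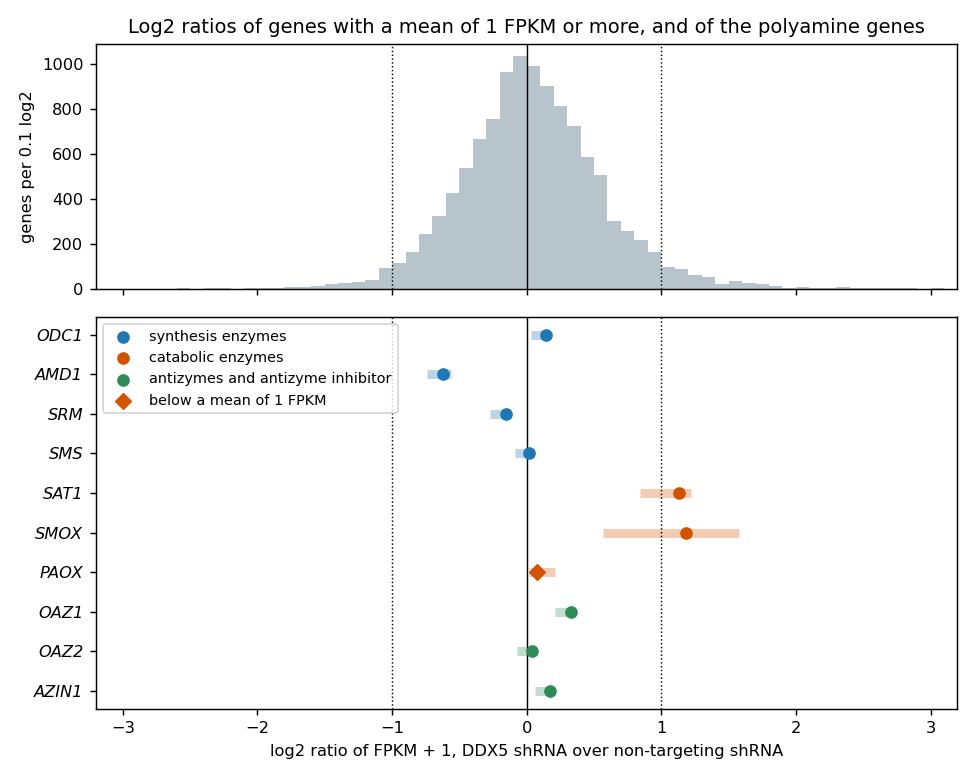
Top, log2 ratios of FPKM + 1 (DDX5 shRNA over non-targeting shRNA) of genes whose mean reached 1 FPKM, 8 of which lie beyond the axis; bottom, the 10 polyamine genes, with points for the values as deposited and bands for the lowest to highest value over 8 processing alternatives. Dotted lines mark 2-fold, which SAT1 and SMOX pass as deposited but not over their whole bands, while AMD1 lies below 0 throughout.

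The E-box is a textbook site of ODC1 regulation by MYC, and the levels of the MYC network are given beside the promoter windows for that reason. ODC1 and SRM were the members with CACGTG in a window, which reads the same on both strands and occurred in 7.26% of 35116 promoter windows of that length. The ODC1 window printed above, at an alternative start, holds a pair of them, at -29 and 5 with the start base counted as 0. Of all windows, 0.664% hold more than 1. The printed ODC1 window was chosen because it holds the match, and the ODC1 window at the main start holds 0. The shares are per window, and ODC1 had more than 1 window. In SRM the match lies at -199. MYC stood at 290.13 FPKM in the DDX5 shRNA library, against 176.77 FPKM in the non-targeting library, a log2 ratio of 0.71, beside 0.14 for ODC1 and -0.15 for SRM. Its partner MAX stood at 40.86 and 33.13 FPKM in the DDX5 shRNA and non-targeting libraries. Of the MAX-binding repressors, MXI1 had 18.04 FPKM in the DDX5 shRNA library, against 7.19 FPKM in the non-targeting library, and MXD1 had 6.02 FPKM in the DDX5 shRNA library, against 2.51 FPKM in the non-targeting library, which is at the 2-fold limit on FPKM + 1. MXI1 and MXD1 were the genes at least 2-fold higher among 13 of this list past the filter, and 0 were 2-fold lower. Of all genes, 4.19% were 2-fold higher and 2.27% 2-fold lower. MXD3, a further repressor of that kind (chosen after its values were seen), had 3.96 FPKM in the DDX5 shRNA library, against 8.38 FPKM in the non-targeting library. Its log2 ratio was -0.92, which passed 2-fold at the same total (-1.02) and with a pseudocount of 0.1 (-1.06). EIF4E, the cap-binding factor to which ODC1 translation is sensitive, had 17.58 FPKM in the DDX5 shRNA library, against 27.25 FPKM in the non-targeting library, a log2 ratio of -0.60. NFE2L2, a transcription factor reported to induce SAT1, had a log2 ratio of 0.12. How these levels relate to ODC1 and SRM was not tested.

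TATAA was searched on both strands and was present in 20.4% of windows. With the start base counted as 0, it occurred in ODC1 at -32 from its main start, in AMD1 at -29 and in OAZ1 at 6. The composite C/EBP-ATF element, searched as TGATGNAAT on both strands, was in 0.991% of all windows. SMOX, PAOX and AZIN1 had no window, and the 10 windows of the other 7 members, SAT1 included, held 0 of these elements. With so low a share over all windows, 0 of 10 says nothing particular about the members. ATF4, which binds such elements, stood at 601.83 FPKM in the DDX5 shRNA library, against 309.42 FPKM in the non-targeting library. A match is a string of letters in these 300 bases and was not tested for binding.

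The neighbouring pathways were read from lists of 81 genes, of which 71 had a row and 53 passed the filter at a mean of 1 FPKM. In all, 6 of the 53 (11.3%) were 2-fold higher and 2 were 2-fold lower, beside 4.19% and 2.27% of all genes. The 6 were SLC3A2, ASS1, PYCR1, CPS1, MXI1 and MXD1, and the 2 were CAV1 and GPC1. The lists were chosen with earlier results of these data known, so these shares describe the lists and show no enrichment. At the same total, and with either centring, 3 genes were 2-fold higher, since PYCR1, CPS1 and MXD1 lay at the 2-fold limit.

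Arginine and ornithine metabolism, which supplies the substrate of ornithine decarboxylase, had a median log2 ratio of 0.39 over 11 genes. Of these, 3 were 2-fold higher and 0 lower, beside 4.19% and 2.27% of all genes. At the same total PYCR1 (0.89) and CPS1 (0.92) were not 2-fold higher. ASS1, argininosuccinate synthase, had 694.91 FPKM in the DDX5 shRNA library, against 264.5 FPKM in the non-targeting library (2.63-fold higher). ASL, the lyase that completes arginine synthesis, had 33.09 FPKM in the DDX5 shRNA library, against 19.54 FPKM in the non-targeting library. ARG2, the mitochondrial arginase that yields ornithine, had 27.47 FPKM in the DDX5 shRNA library, against 16.43 FPKM in the non-targeting library (chosen after its values were seen). The genes that turn ornithine or glutamate towards proline differed in direction. PYCR1, which makes proline, had 121.46 FPKM in the DDX5 shRNA library, against 60.02 FPKM in the non-targeting library, a log2 ratio at the 2-fold limit. The ornithine aminotransferase gene OAT had 24.25 FPKM in the DDX5 shRNA library and 29.57 FPKM in the non-targeting library, and ALDH18A1, which acts on glutamate, had a log2 ratio of -0.52. CPS1, the mitochondrial carbamoyl phosphate synthetase, had 5.90 FPKM in the DDX5 shRNA library and 2.43 FPKM in the non-targeting library.

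**Figure D4:**
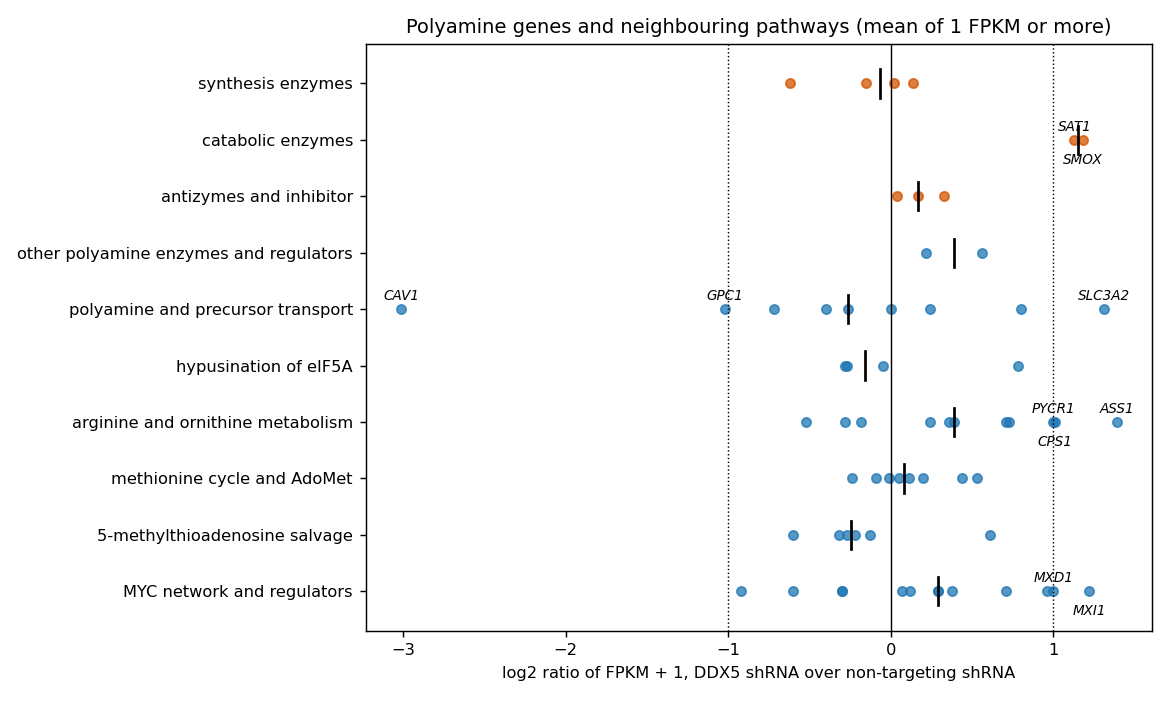
Log2 ratios of FPKM + 1 (DDX5 shRNA over non-targeting shRNA) of the polyamine genes (orange) and of 7 neighbouring lists (blue), 1 point per gene whose mean reached 1 FPKM, and a black bar at each list's median. Dotted lines mark 2-fold and names are given for genes at or past them: SAT1 and SMOX among the polyamine genes, 6 genes higher and 2 lower among the others.

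The methionine cycle, which makes the S-adenosylmethionine that AMD1 uses, had a median log2 ratio of 0.08 over 8 genes, with 0 genes 2-fold higher or lower. MAT2A, its synthetase, had 278.6 FPKM in the DDX5 shRNA library and 269.51 FPKM in the non-targeting library, a log2 ratio of 0.05, and the regulatory subunit gene MAT2B had a log2 ratio of -0.01. AHCY, which clears S-adenosylhomocysteine, had 148.47 FPKM in the DDX5 shRNA library and 175.97 FPKM in the non-targeting library. The methionine synthase genes MTR and MTRR had log2 ratios of 0.20 and 0.11. The salvage of 5-methylthioadenosine, the by-product of SRM and SMS, had a median of -0.24 over 6 genes. Of these 5 lay below 0, beside 5455 of the 11413 genes past the filter. As with most genes past the filter, 0 of them were 2-fold apart. MTAP, the first salvage enzyme and a gene often deleted in cancer, was expressed, with 15.54 FPKM in the DDX5 shRNA library and 18.98 FPKM in the non-targeting library. The next genes of the salvage route, APIP, ADI1 and ENOPH1, had log2 ratios of -0.13, -0.22 and -0.32. MRI1, the isomerase after MTAP, had a log2 ratio of -0.60, close to that of AMD1, and GOT1, an aminotransferase with other main roles, was the gene above 0 at 0.61.

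Spermidine also serves to make hypusine, the modified lysine of the translation factor eIF5A. EIF5A had 544.86 FPKM in the DDX5 shRNA library, against 658.76 FPKM in the non-targeting library, a log2 ratio of -0.27. DHPS, which transfers the aminobutyl group of spermidine to eIF5A, had 59.95 FPKM in the DDX5 shRNA library, against 34.53 FPKM in the non-targeting library, a log2 ratio of 0.78. DOHH, which completes hypusine, had 10.11 FPKM in the DDX5 shRNA library, against 12.48 FPKM in the non-targeting library. The enzyme genes of this modification therefore had ratios of opposite sign, and 0 of 4 genes past the filter were 2-fold apart.

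Among transport genes, SLC3A2, the heavy chain of several amino acid exchangers and a reported part of polyamine export with SAT1, had 247.77 FPKM in the DDX5 shRNA library, against 99.27 FPKM in the non-targeting library (2.50-fold higher). SLC7A1, a carrier of arginine and ornithine, had 54.12 FPKM in the DDX5 shRNA library, against 30.55 FPKM in the non-targeting library, and its relative SLC7A2 had a log2 ratio of -0.26. ATP13A3, a P5B ATPase of polyamine uptake, had 14.49 FPKM in the DDX5 shRNA library, against 24.47 FPKM in the non-targeting library, a log2 ratio of -0.72, and its lysosomal relative ATP13A2 (chosen after its values were seen) had 3.10 FPKM in both. Polyamine uptake and export themselves were not measured. The mitochondrial ornithine carrier SLC25A15 had 12.85 FPKM in the DDX5 shRNA library and 17.26 FPKM in the non-targeting library. GPC1, a glypican linked to spermine uptake, had 12.74 FPKM in the DDX5 shRNA library, against 26.9 FPKM in the non-targeting library. CAV1, a caveolar protein reported to restrain polyamine uptake, had 1.30 FPKM in the DDX5 shRNA library, against 17.55 FPKM in the non-targeting library. Of 9 transport genes past the filter, 1 was 2-fold higher and 2 were 2-fold lower, beside 4.19% and 2.27% of all genes. The median of these 9 was -0.26.

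Close relatives of the members lay within 2-fold or were scarce. SAT2, a relative of SAT1, had 18.03 FPKM in the DDX5 shRNA library and 15.32 FPKM in the non-targeting library, a log2 ratio of 0.22, beside 1.13 for SAT1. SAT1 thus had a lower level than SAT2 in both libraries. OAZ3, an antizyme known from testis, had 2.26 FPKM in the DDX5 shRNA library and 1.21 FPKM in the non-targeting library. AZIN2, the second antizyme inhibitor, had 0.07 FPKM in the DDX5 shRNA library, and the non-targeting library lists it at 0.

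Sequence shared with other transcripts could affect some members. None of the 50-base windows of ODC1, SRM, SAT1, SMOX and OAZ2 occurred in a GENCODE 29 transcript of another gene. For SMS 25.7% did, for OAZ1 16.4%, for AZIN1 6.20%, for AMD1 4.72% and for PAOX 3.87%. None of the other genes that share them was found by name in the table. Genes were compared by name only, so rows without a name or under another name were not covered. Exons of OAZ1 and OAZ2 overlap genes on the opposite strand by 6.87% and 7.22% of their bases and those of AZIN1 by 5.35%. On the same strand, exons of OAZ1 overlap another gene by 6.4% and those of PAOX by 6.94%. For OAZ1, AZIN1 and PAOX these overlapping genes are the ones that share the windows counted above. The strand setting is not given in the sources used here, and it could not separate overlaps on the same strand. Reads of overlapping genes therefore cannot be told apart there, and their part in the values was not tested.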

How the data were processed

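Each condition gave 1 library, prepared from Trizol-extracted RNA by a standard Illumina method, per the labels. Per the file headers, the values that the authors deposited are FPKM. RSEM 1.2.8, Bowtie2, HISAT and build hg19 appear in the submitters' processing notes, without roles. Annotation, strand setting and filters: not given in the sources used here. RSEM divides shared reads by estimation, so gene copies can exchange FPKM.

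Columns were assigned by sample title, and 15289 of 16021 rows were named through RefSeq (GRCh38.p14). Python 3.11.15, numpy 2.4.6, pandas 2.3.3 and matplotlib 3.10.9 were used. The log2 ratio of FPKM + 1 was computed for the whole table, and the 11413 genes whose mean reached 1 FPKM entered counts and medians. A pseudocount of 1 understates differences of low genes. The computation of ratios and steps was checked on simulated data with known answers. With 1 library per group no test between conditions was made.

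Named genes are DDX5, the 10 members, and in each neighbouring list the genes 2-fold apart, up to 6 of the most abundant, and MYC, MAX, EIF5A, MTAP, MAT2A and SLC3A2. An item that the rule names is not reported here. ARG2, ATP13A2 and MXD3 fall outside this rule, and marker genes check the cell type. Members and lists were chosen with earlier results of these data known.

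Fragment numbers rest on whole steps in low FPKM of genes with 1 GENCODE 29 transcript of 300 to 1800 bases. At the best step 68.3% of 167 genes in the DDX5 shRNA library and 66.9% of 172 genes in the non-targeting library lay within 0.15 of a whole number, against 30% for a step fixed beforehand. The step was chosen for its fit, on lengths reduced by 100 bases. Fragment numbers used the full length of each member's longest coding transcript, so they are approximate and lean high. Shared sequence was counted in 50-base windows taken every 10 bases.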

Additional observations from a re-analysis of the deposited data

How the results depend on the processing

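No paired analysis was possible because each condition has 1 library. Values were recomputed with a pseudocount of 0.1 or 5, without the filter or with it raised to 5 FPKM, and under 4 scalings. SAT1 and SMOX had ratios above 0 and AMD1 below 0 under all 8, which is no check of direction. A pseudocount or a filter does not change the sign of a gene's ratio, which leaves the 4 scalings. Of these, the same total moved the median of all genes most, by -0.1, which is small beside these ratios. There SAT1 was at 1.02, SMOX at 1.1 and AMD1 at -0.74. A value was taken as moved past 0.1 on the log2 scale, and a count past 1.5 times.

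With a pseudocount of 0.1, 743 of all genes were 2-fold higher and 390 lower. With a pseudocount of 5 these were 194 and 102, 0 members were 2-fold higher, and 2 genes of the neighbouring lists were 2-fold higher and 1 lower. With the filter at 5 FPKM, 1 member (SAT1) was 2-fold higher, since SMOX falls below it. At the same total the median of the members was 0.03, and the split of all genes was 379 higher (50% of both) against 379 lower, where it was 478 (64.9%) against 259 as deposited. In the neighbouring lists 3 genes were 2-fold lower at the same total and with a pseudocount of 0.1, where 2 were as deposited (MXD3 was added), and 3 genes were 2-fold higher at the same total, 3 centred on the median and 3 centred on the trimmed mean. For the summed levels, the log2 ratio of DDX5 shRNA over non-targeting shRNA was -0.02 for synthesis (-0.14 at the same total and -0.16 as a geometric mean), 1.28 for catabolism (1.16 and 1.05) and 0.30 for the antizyme group (0.19 and 0.19). Rescaling without ribosomal protein genes moved none of the member values past 0.1. Depth limits PAOX most, at about 13 fragments in the DDX5 shRNA library and 11 in the non-targeting library.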
